A study of Rattus norvegicus with 6 samples.

Results

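The 6 genes described here are the tendon transcription factors Scx and Mkx, the membrane protein gene Tnmd, and the homeobox factor Six2 with the coactivators Eya1 and Eya2. They were chosen by name from the 33300 genes of the deposited table, where each name had 1 row. RNA-seq profiles came from rat tendon stem/progenitor cells (TSPC), which are tendon-derived cells able to form new tenocytes; the labels also call them mesenchymal stem cells, give tenogenic differentiation as genotype, and state 7 days. The 3 Control libraries were grown in F12 medium and the 3 NAC libraries in F12 medium with 500 uM N-acetyl-L-cysteine, a thiol antioxidant and cysteine source. Values are FPKM, fragments scaled to gene length and to the authors' factor for each library, so levels can be compared between genes per unit of length. That factor was not the library's read total. Between 12487215 and 14941949 reads per library could be recovered from the values. Whether libraries of 1 group stem from different cultures or animals is not stated in the labels, and the p-values therefore reflect the spread among these samples alone, which may be technical.

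Scx encodes scleraxis, a basic helix-loop-helix factor that marks tendon progenitors and activates collagen and Tnmd genes. Mkx encodes mohawk, an atypical homeobox protein of the TALE class that acts later in tendon maturation and collagen fibril growth. Tnmd encodes tenomodulin, a type II membrane glycoprotein that serves as a marker of more mature tendon cells and depends on Scx in the embryo. Sine oculis-type homeobox proteins, to which Six2 belongs, bind DNA and recruit EYA proteins, which are coactivators with phosphatase activity; Six2, Eya1 and Eya2 are expressed in developing limb tendons and connective tissue.

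None of the 6 genes passed the test between NAC and Control. The largest difference was that of Tnmd, which was higher in every NAC library, followed by that of Mkx, which had a lower mean in NAC with overlapping groups. Eya1 was at or under the detection floor, and the other 5 passed the filter of a mean of at least 1 FPKM. Of those 5, 0 were called higher and 0 lower by limma on log2(FPKM + 1) at a Benjamini-Hochberg adjusted p under 0.05. Among all 12733 tested genes 6.08% were called higher and 2.72% lower, so a count of 0 among 5 is near the background. An unadjusted p under 0.05 was reached by 1 of the 5 genes and by 26.3% of all tested genes. Limma voom on the recovered reads called 0 higher and 1 lower, Mkx, where 4.19% of all tested genes were called higher and 32.9% lower, and scaling to library totals also called 0 higher and 1 lower, against 3.67% and 29.2%. A count of 1 among 5 is no more than that background. The log2 fold changes of 4 genes lay below 0 and that of 1 above, with a median of -0.074 against -0.0063 over all tested genes.

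**Figure D1:**
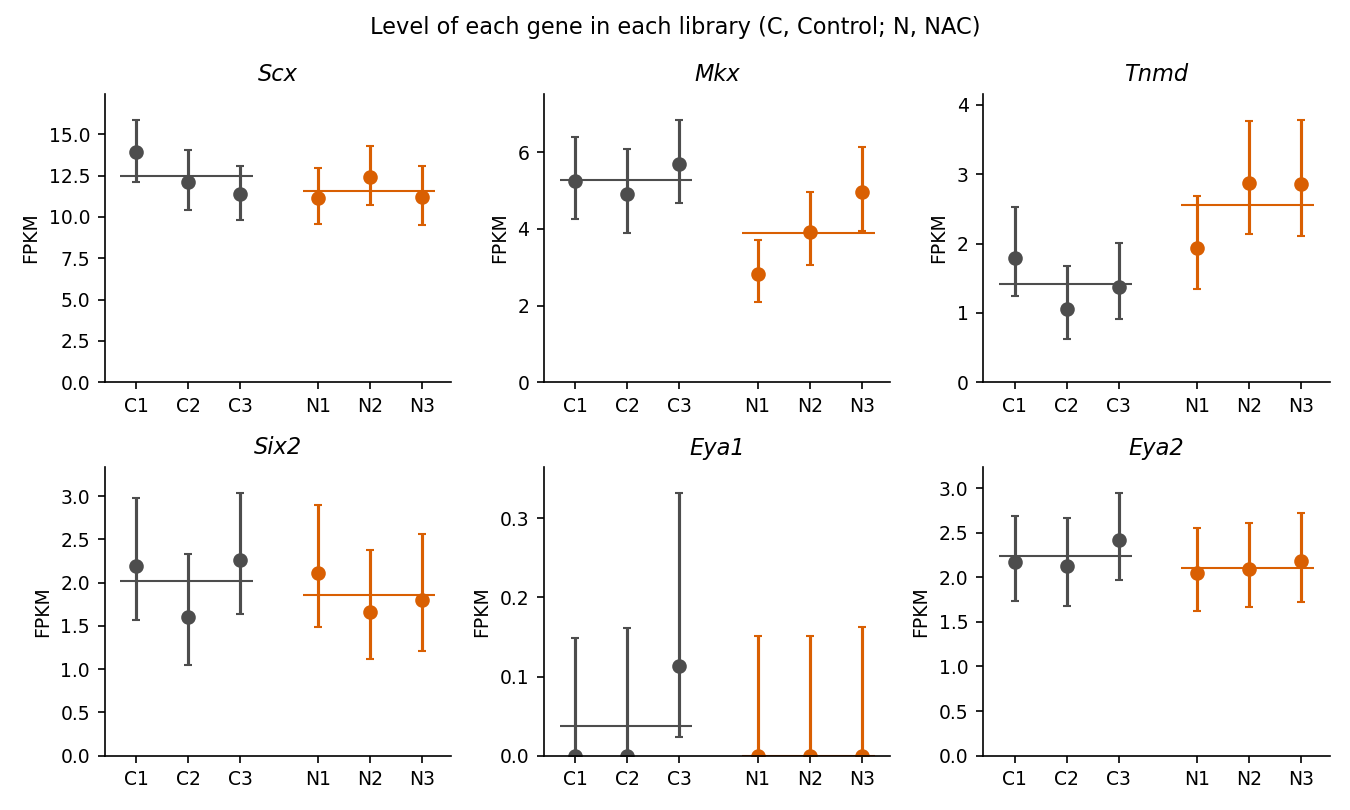
FPKM of the 6 genes in each library, Control in grey and NAC in orange; points are the deposited values, bars the 95% Poisson interval of the reads behind each, and horizontal lines the group means. The Tnmd values of NAC lie above those of Control, the Mkx values overlap through NAC 3, and Eya1 has reads in Control 3 only.

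Promoter sequences are shown for Tnmd and Mkx because their levels differed most between the groups and in opposite directions. Each is the 250 bases before a RefSeq start site (build GRCr8), 5′ to 3′ along the gene, with CpG dinucleotides in capitals. The RefSeq table held 3 of the 6 genes, with 4 starts in all: Tnmd, Six2 and Mkx, the last with 2. The starts may differ from those of the models used for the deposited table, where Mkx lies on the plus and Six2 on the minus strand, and the 2 sets of coordinates were not compared.
Tnmd, chrX:101350182-101350431, plus strand: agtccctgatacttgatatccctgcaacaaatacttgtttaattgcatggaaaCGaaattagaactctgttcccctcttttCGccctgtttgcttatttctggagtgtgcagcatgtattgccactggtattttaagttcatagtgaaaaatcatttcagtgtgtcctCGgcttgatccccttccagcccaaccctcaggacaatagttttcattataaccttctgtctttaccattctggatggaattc
Mkx, first start, chr17:59851161-59851410, minus strand: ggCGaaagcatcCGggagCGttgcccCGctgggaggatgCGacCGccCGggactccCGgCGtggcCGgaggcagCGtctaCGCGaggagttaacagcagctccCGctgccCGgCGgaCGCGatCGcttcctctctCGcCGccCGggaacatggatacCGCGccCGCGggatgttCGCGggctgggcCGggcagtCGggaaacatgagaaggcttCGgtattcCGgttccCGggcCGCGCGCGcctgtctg

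The contrast in base composition is plain from the capitals. The Tnmd window held 3 CpG dinucleotides and 40.8% G and C, and 15.5% of the 33469 rat promoter windows of this length had a lower G and C content. The Mkx windows held 37 and 27 CpG dinucleotides and 71.2% and 67.6% G and C, and the Six2 window (chromosome 6, 14727808 to 14728057) held 45 and 86.0%. Scleraxis and its relatives bind E-boxes, whose core is CANNTG, a motif that reads the same on both strands. None of the 4 windows held these letters, which occurred in 65.5% of all promoter windows of this length. This describes the letters of these windows and says nothing of binding elsewhere.

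Scx (ENSRNOG00000021812; chromosome 7, 117519075 to 117521093, plus strand, in the coordinates of the table, rat genome build not given in the sources used here) was the most abundant of the 6 genes. It stood at 13.9, 12.1 and 11.4 FPKM in Control 1, 2 and 3 and at 11.2, 12.4 and 11.2 FPKM in NAC 1, 2 and 3. The groups overlapped, with Control 1 the highest library and the other 5 close together. The means were 12.5 ± 1.30 and 11.6 ± 0.700 FPKM (SD, n = 3). Their difference on the log2 scale was -0.094 ± 0.083 (SE; adjusted p = 0.519 by limma). Its 95% interval, -0.29 to 0.10, corresponds to 0.818-fold to 1.07-fold on the log2(FPKM + 1) scale. The values rested on 160 to 217 reads a library. Without Control 1 the difference shrank to -0.018.

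The Scx gene lies within the span of 1 other gene of the table, Bop1, which encodes a ribosome biogenesis factor and runs on the opposite strand (chromosome 7, 117514533 to 117538342). Neither the labels nor the file state a strand setting, so reads of one gene that fall on the other cannot be told apart. Bop1 stood at 12.4, 12.4 and 13.1 FPKM in Control and at 10.3, 11.4 and 11.3 FPKM in NAC. All 3 NAC values of Bop1 were lower, but the gene was not called (log2 fold change -0.18, limma adjusted p = 0.0991), except with library totals and voom (-0.34 and -0.38). Those settings called 29.2% and 32.9% of all tested genes lower. No other gene of the table overlapped Mkx, Tnmd, Six2, Eya1 or Eya2.

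Mkx (ENSRNOG00000018938; chromosome 17, 60537935 to 60549750) had the second highest level. Its values were 5.24, 4.90 and 5.69 FPKM in Control 1, 2 and 3, and 2.82, 3.93 and 4.95 FPKM in NAC 1, 2 and 3. The Control libraries were alike, whereas the NAC libraries were spread out, and NAC 3 reached above Control 2. The means were 5.28 ± 0.394 and 3.90 ± 1.07 FPKM (SD, n = 3). The log2 fold change was -0.38 ± 0.16 (SE, limma adjusted p = 0.192), with a 95% interval of -0.76 to 0.0021.

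The reads behind Mkx numbered 83 to 111 in Control libraries and 51 to 83 in NAC libraries. Their counting error averaged 10.2% in Control and 12.3% in NAC, whereas the coefficient of variation between libraries was 7.46% in Control and 27.3% in NAC. The spread of Mkx among the NAC libraries was thus wider than counting error alone, and NAC 1, the lowest, weighs most in the difference: without it the log2 fold change was -0.21, and without NAC 3 it was -0.53 (limma adjusted p = 0.0909). Scaled to library totals in place of the authors' factors, Mkx was called lower (-0.52, adjusted p = 0.0481), as it was with limma voom on the recovered reads (-0.66, adjusted p = 0.0268). Those scalings move the median of all tested genes to -0.16 and -0.18. Relative to that median, Mkx stood at -0.36 and -0.48.

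Tnmd (ENSRNOG00000060970; chromosome X, 104684676 to 104700173) went the other way. Control 1, 2 and 3 had 1.80, 1.06 and 1.38 FPKM, and NAC 1, 2 and 3 had 1.93, 2.87 and 2.86 FPKM. Every NAC library was above every Control library, though NAC 1 exceeded Control 1 by little. Such separation with NAC higher was seen in 16.7% of all tested genes, and with NAC lower in 15.9%. The means were 1.41 ± 0.369 and 2.55 ± 0.537 FPKM (SD, n = 3), 1.81-fold on the linear scale. On log2(FPKM + 1) the difference was 0.56 ± 0.17 (SE, 95% interval 0.16 to 0.96, unadjusted p = 0.0135, limma adjusted p = 0.0909). In size it exceeded the absolute log2 fold change of 95.7% of tested genes. The mean level of Tnmd exceeded that of only 11.4% of them, and genes of like level were not compared apart.

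Tnmd rested on few reads: 33, 18 and 27 in the Control libraries and 35, 52 and 48 in the NAC libraries, 78 and 135 in all. The counting error of 20.1% in Control and 15.1% in NAC made up much of its coefficient of variation of 26.2% and 21.1%. At this depth the 95% Poisson intervals of NAC 1 (1.35 to 2.69 FPKM) and Control 1 (1.24 to 2.52 FPKM) overlapped nearly whole. A pseudocount of 0.1 in place of 1 raised the log2 fold change to 0.82 (limma adjusted p = 0.0954). Over all settings tried the Tnmd difference stayed above 0 and short of the threshold (0.44 to 0.82, adjusted p = 0.0850 to 0.232).

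Six2 (ENSRNOG00000058827; chromosome 6, 8952572 to 8956276, minus strand) stood at 2.19, 1.60 and 2.26 FPKM in Control and at 2.11, 1.66 and 1.79 FPKM in NAC. The groups overlapped widely, and 27 to 44 reads lay behind each value. The log2 fold change was -0.074 ± 0.13 (SE, 95% interval -0.39 to 0.24, limma adjusted p = 0.765).

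Eya2 (ENSRNOG00000019203; chromosome 3, 162346490 to 162470065) was the steadiest of the 5 tested genes. It had 2.17, 2.13 and 2.42 FPKM in Control and 2.05, 2.10 and 2.18 FPKM in NAC. The groups overlapped, and the coefficients of variation, 7.06% and 3.16%, were below the counting error of 10.7% and 11.2%. The log2 fold change was -0.060 ± 0.093 (SE, limma adjusted p = 0.729). Its 95% interval corresponds to 0.823-fold to 1.12-fold on the log2(FPKM + 1) scale, which understates changes at so low a level.

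Eya1 (ENSRNOG00000007590; chromosome 5, 4373626 to 4513142) had 3 reads in Control 3 (0.114 FPKM) and was listed at 0 in the other 5 libraries. A floor of 3 reads equals 0.114 to 0.132 FPKM at its length. Both groups lay at or under it, so no fold is given. Expression of Eya1 was not detectable at this depth in the 5 libraries listed at 0, NAC and Control alike, and Control 3 lay at the floor.

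Ordered by level in Control, Scx was followed by Mkx, Eya2, Six2, Tnmd and Eya1. The ranges of Scx and Mkx, of Mkx and Eya2, and of Tnmd and Eya1 did not meet, whereas those of Eya2 and Six2 and of Six2 and Tnmd overlapped. In NAC the order was Scx, Mkx, Tnmd, Eya2, Six2 and Eya1. There the ranges of Scx and Mkx and of Six2 and Eya1 did not meet. Those of Mkx and Tnmd overlapped, the highest Tnmd value, 2.87 FPKM, being above the lowest Mkx value, 2.82 FPKM, as did those of Tnmd and Eya2 and of Eya2 and Six2. The mean level of Scx exceeded that of 56.2% of all tested genes and that of Mkx exceeded 28.9%, while Tnmd, Six2 and Eya2 exceeded 11.1% to 13.3%.

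Ratios of 2 genes within a library do not depend on how libraries are scaled. Tnmd over Scx was 0.129, 0.0874 and 0.121 in Control 1, 2 and 3 and 0.173, 0.231 and 0.255 in NAC 1, 2 and 3. Tnmd over Mkx was 0.343, 0.216 and 0.243 in Control and 0.684, 0.730 and 0.577 in NAC. Both ratios were higher in all 3 NAC libraries, from a mean of 0.113 ± 0.0222 to 0.220 ± 0.0422 for the first and from 0.267 ± 0.0668 to 0.664 ± 0.0788 for the second (SD, n = 3). In the exact two-sided permutation test each gave p = 0.1, the smallest that 3 libraries against 3 allow. Mkx over Scx overlapped between the groups (0.377, 0.404 and 0.501 against 0.253, 0.317 and 0.442, exact permutation p = 0.3). Eya2 over Six2 was 1.13 ± 0.177 in Control and 1.15 ± 0.156 in NAC (SD, n = 3; exact permutation p = 1). With 5 ratios computed, none can pass after adjustment in a design of this size, and these ratios were taken from genes whose levels had been seen.

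**Figure D2:**
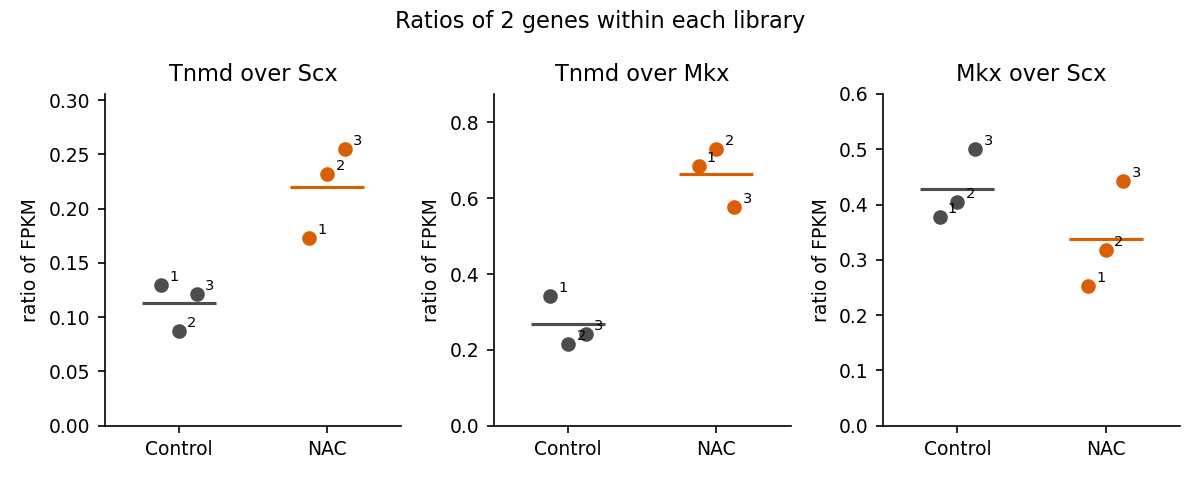
Ratio of FPKM of Tnmd to Scx, Tnmd to Mkx and Mkx to Scx in each library, numbered by replicate, with group means as lines. The Tnmd ratios of the NAC libraries lie above those of Control, and the Mkx to Scx ratios overlap.

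The relatives of Six2, Eya1 and Eya2 showed which members of that network these cells expressed. Six5 stood at 10.5 ± 1.54 FPKM in Control and 11.9 ± 0.819 FPKM in NAC (SD, n = 3), above Six2 in all 6 libraries. Among the 4 EYA genes Eya3 led, with 85.4 ± 0.824% and 84.4 ± 1.58% of the sum, and Eya2 had 13.5 ± 0.691% and 14.6 ± 0.915%. Eya3 was lower in all 3 NAC libraries (14.1 ± 0.799 to 12.2 ± 0.593 FPKM) without passing the test (log2 fold change -0.20, limma adjusted p = 0.0947). With library totals and with limma voom Eya3 was called lower (-0.36 and -0.39), where 29.2% and 32.9% of all tested genes were. Of the 9 relatives listed, 4 were tested and 0 called as deposited, with a median of -0.043, and Six6 and Dach2 had no reads. The share called among all tested genes was 6.08% higher and 2.72% lower.

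**Figure D3:**
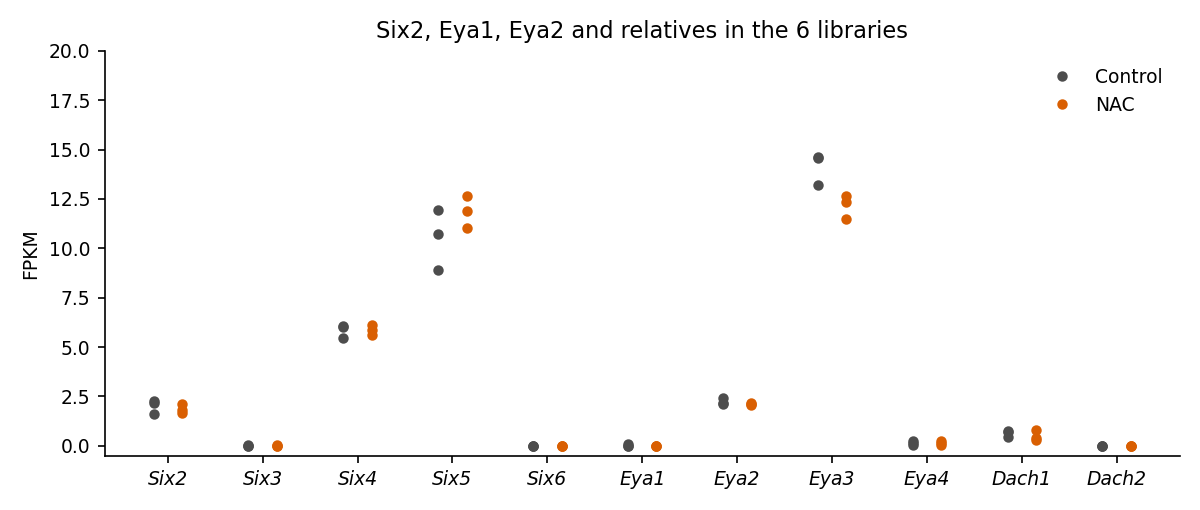
FPKM of Six2, Eya1 and Eya2 and 8 of their relatives in the 3 Control (grey) and 3 NAC (orange) libraries, 1 point per library. Six5 and Eya3 are the highest of the genes shown, and Six2 and Eya2 lie near 2 FPKM in both groups.

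Scx acts as a dimer with E proteins and is held back by ID proteins, which pair with bHLH factors but do not bind DNA. Of 10 such partners, relatives and inhibitors 9 were tested, 1 rose and 1 fell, with a median of 0.12. Among all tested genes 6.08% were called higher and 2.72% lower, and so small a list cannot be told apart from that background. Id1, one of the inhibitors, rose from 36.2, 38.0 and 34.7 FPKM in Control to 47.6, 46.0 and 52.2 FPKM in NAC (log2 fold change 0.41 ± 0.059, SE, limma adjusted p = 0.0112). All NAC values were higher, and leaving out single libraries kept the call each time (0.36 to 0.45, limma adjusted p = 0.0150 to 0.0472). With library totals and voom it was called at 0.24. Tcf4, an E protein, fell from 11.6 ± 0.433 to 9.46 ± 0.575 FPKM (SD, n = 3; log2 fold change -0.27, limma adjusted p = 0.0422), a call lost on leaving out each of the 6 libraries in turn (-0.30 to -0.23), without a filter, under quantile normalization and without a trend. With library totals and voom Tcf4 was called at -0.43 and -0.48, where 29.2% and 32.9% of all tested genes were called lower. Id3, the most abundant ID gene, stood at 355 ± 51.6 and 408 ± 29.4 FPKM (limma adjusted p = 0.267). Twist2, a bHLH factor of mesenchyme, stood at 153 ± 16.4 and 200 ± 20.8 FPKM (limma adjusted p = 0.0592), and was called without Control 2 (0.47) and at a mean of at least 5 FPKM. By mean level Scx ranked 20 of the 37 tested genes that the file assigns to the HLH family.

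Among the 17 TALE homeobox relatives of Mkx 13 were tested, 0 rose and 1 fell, with a median of 0.042. Over all tested genes 6.08% were called higher and 2.72% lower. Tgif1, a repressor of TGF-beta responses, fell from 42.2, 45.9 and 42.7 FPKM in Control to 36.9, 37.1 and 36.6 FPKM in NAC (log2 fold change -0.23 ± 0.044, SE, limma adjusted p = 0.0247). The groups did not overlap, yet the call was lost in 5 of the 6 fits that left out 1 library, all but the one without Control 2 (-0.26 to -0.20), and without a trend. With library totals and voom Tgif1 was called at -0.40 and -0.41, where 29.2% and 32.9% of all tested genes were called lower. Pbx2, a TALE cofactor, overlapped between the groups, from 14.9 to 16.8 FPKM in Control and from 15.3 to 16.9 FPKM in NAC (limma adjusted p = 0.698).

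TGF-beta and FGF signals induce Scx in the embryo. Of 23 ligands, receptors, mediators and response genes of these signals 20 were tested and 0 were called in either direction, with a median of 0.029. The share over all tested genes was 6.08% higher and 2.72% lower. Tgfbr2, a TGF-beta receptor, stood at 91.8 ± 5.94 and 89.0 ± 1.18 FPKM (limma adjusted p = 0.651; called lower with library totals and voom, -0.21 and -0.22) and Fgfr1 at 133 ± 1.89 and 140 ± 4.03 FPKM (limma adjusted p = 0.210). Library totals and voom called 29.2% and 32.9% of all tested genes lower and moved their median to -0.16 and -0.18. Mstn, which encodes myostatin, varied among Control libraries (86.7, 197 and 105 FPKM), with Control 2 the highest, against 84.1, 127 and 123 FPKM in NAC. Fgf4 and Fgf8 had no reads.

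Of 17 other transcription factors of tendon and connective tissue 13 were tested and 0 called, with a median of 0.068. Over all tested genes 6.08% were called higher and 2.72% lower. Egr1, a zinc finger factor that can induce Scx and tendon collagens, was high in 1 library of each group. It stood at 39.9, 128 and 35.5 FPKM in Control 1, 2 and 3 and at 48.1, 45.7 and 154 FPKM in NAC 1, 2 and 3. The level of Scx in the 2 libraries with high Egr1 was 12.1 FPKM (Control 2) and 11.2 FPKM (NAC 3), within the range of the others. With 1 such library in each group, a link between Egr1 and Scx was not tested. Klf4, a zinc finger factor, was lower in all NAC libraries (36.4, 28.7 and 39.8 FPKM against 26.0, 21.8 and 25.6 FPKM, log2 fold change -0.49, limma adjusted p = 0.0601). It passed without Control 2 (-0.62, limma adjusted p = 0.0148), at a mean of at least 5 FPKM, with library totals and voom (-0.66 and -0.69), and in a fit with the replicate number as a block (limma adjusted p = 0.0274). Nfatc4 stood at 36.4 ± 1.29 and 32.0 ± 2.13 FPKM (limma adjusted p = 0.101), and was called lower with library totals (-0.35) and voom (-0.37). Library totals and voom called 29.2% and 32.9% of all tested genes lower.

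Several tendon matrix genes are known targets of Scx or Mkx. Of 20 matrix genes 18 were tested, 12 rose and 0 fell, with a median of 0.51 against -0.0063 over all tested genes. Of all tested genes 6.08% were called higher and 2.72% lower. Col1a1, the main collagen of tendon, rose by 0.997 ± 0.054 on the log2 scale (SE, limma adjusted p = 4.06e-04; 0.52 under quantile normalization, where it was also called), and Lum, which encodes the proteoglycan lumican, by 0.95 ± 0.039 (limma adjusted p = 2.34e-04). Ctsk, a collagen-degrading cathepsin, rose from between 59.4 and 59.9 FPKM in Control to between 85.0 and 86.3 FPKM in NAC (limma adjusted p = 5.20e-04), a log2 fold change of 0.52 that was 0.34 with library totals. Dcn and Bgn rose by 0.32 and 0.55 as deposited, calls lost under quantile normalization (0.048 and 0.031), and that of Dcn also without a filter. With library totals and voom Dcn was called at 0.15. Aspn, which encodes asporin and was chosen after its values were seen, was lower in all NAC libraries without being called. It stood at 1.76, 7.73 and 13.5 FPKM in Control and at 1.54, 1.16 and 1.51 FPKM in NAC (limma adjusted p = 0.134).

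**Figure D4:**
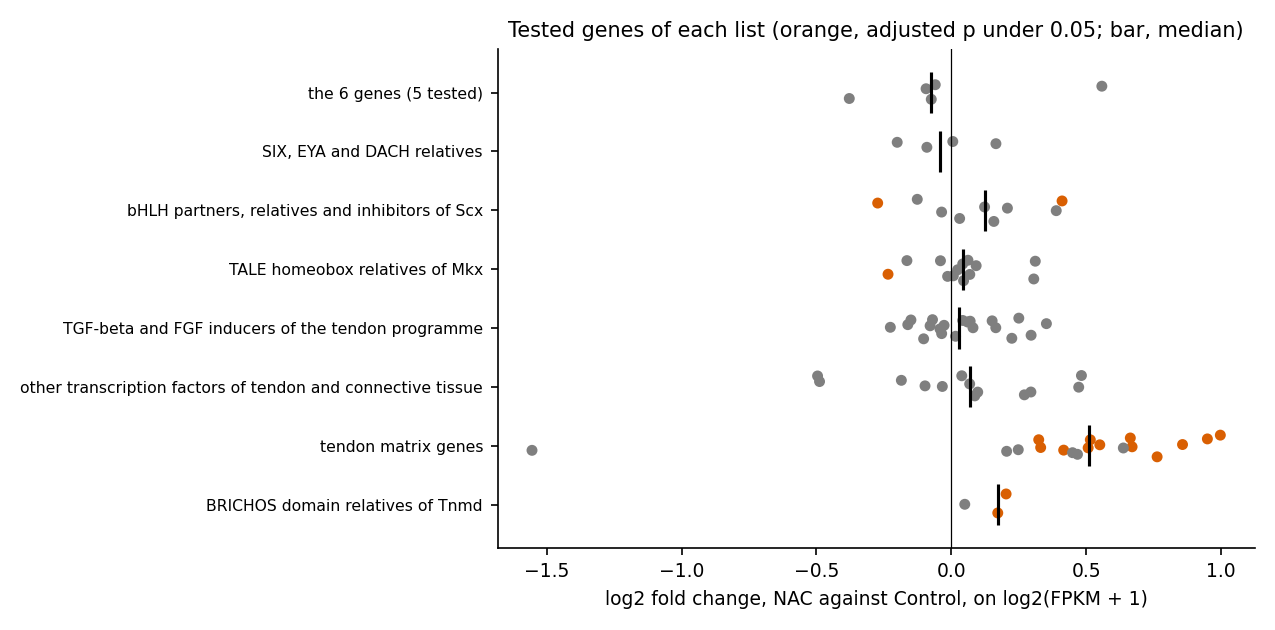
Log2 fold change of NAC against Control for the tested genes of each list, orange where the adjusted p is under 0.05, with a vertical bar at the list's median. The matrix genes lie mostly to the right of 0, and the factor and signal lists are spread about 0.

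Tnmd carries a BRICHOS domain, shared with the ITM2 proteins and with chondromodulin (Cnmd). Of 7 such relatives 3 were tested, 2 rose and 0 fell, with a median of 0.17. The share called among all tested genes was 6.08% higher and 2.72% lower. Itm2c and Itm2b rose by 0.17 ± 0.029 and 0.20 ± 0.038 (log2, SE, limma adjusted p = 0.0187 and 0.0239). With library totals and voom these values became -0.0022 and -0.0023 for Itm2c and 0.029 under both for Itm2b, and quantile normalization gave -0.091 and 0.019. Both calls were also lost without a trend in eBayes. The Itm2c call was lost in 5 of 6 and the Itm2b call in 3 of 6 fits that left out 1 library (0.17 to 0.18 and 0.18 to 0.23), for Itm2c all but the one without Control 2 and for Itm2b those without Control 3, NAC 1 or NAC 2. Itm2a stood at 2.99 ± 0.617 and 3.14 ± 0.721 FPKM (SD, n = 3; limma adjusted p = 0.883). Cnmd, found under an older name, had no reads.

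The genes whose profile over the 6 libraries came nearest to each tested gene were found by the root mean square difference of mean-centred log2(FPKM + 1), among 11424 protein-coding genes. For Tnmd they were AABR07067762.1 (0.075), Pla2r1 (0.086) and LOC679582 (0.10), against a root mean square of 0.33 for the profile of Tnmd itself. For Mkx they included Wdr12 (0.088) and AABR07050828.1 (0.096), against 0.27. Pgap1, Nadsyn1 and Exoc1 came nearest to Scx (0.014 to 0.026, against 0.103). Gpx7, Dnm3 and Sertad1 were nearest to Six2 (0.030 to 0.033, against 0.13), and Ulk2, Pdzd8 and Gulp1 to Eya2 (0.012 to 0.017, against 0.053). With 6 libraries and this many genes, close profiles are common, and no shared function is implied.

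The labelled cell type was checked against markers. Counts of called markers stand beside 6.08% called higher and 2.72% lower among all tested genes. All 5 mesenchymal surface genes were measured and 0 called, among them Thy1 (874 to 1057 FPKM), Pdgfra (207 to 247 FPKM) and Cd44 (102 to 130 FPKM). Some marker genes of other cells had no reads in any library. Among them were Ptprc of leukocytes, Cdh5 and Emcn of endothelium, Sox10 of Schwann cells, and Krt5 and Krt14 of epithelium. Pax3, Pax7 and Myf5 of the muscle lineage, in which EYA proteins also act, had none either. Myod1 of that lineage, chosen after its values were seen, had 6 to 10 reads in each library. The muscle genes Des, Acta1 and Tnnt3 passed the filter and were not called. Kdr and Vwf of endothelium had 11 to 39 and 8 to 28 reads in each library. Summed levels reached at most 0.750 FPKM over 5 endothelial genes and 0.101 FPKM over 4 epithelial genes. They were 9.68 to 12.2 FPKM in Control and 8.35 to 10.9 FPKM in NAC over 5 leukocyte genes, mostly Lyz2 and Cd68. Over 4 pericyte genes they were 17.2 to 20.8 and 21.3 to 21.9 FPKM, mostly Cspg4, and over 4 Schwann cell genes 46.9 to 55.0 and 47.7 to 53.2 FPKM, mostly S100b. The muscle genes summed to 30.0 to 32.8 and 32.7 to 35.2 FPKM, mostly Tnnt3. Cartilage genes summed to 11.1 to 15.1 and 10.9 to 12.7 FPKM, mostly Sox9, with 0 of 2 tested called. Bone genes summed to at most 95.2 FPKM in Control and to 181 to 226 FPKM in NAC, mostly Spp1, and fat genes, mostly Lpl, to 891 to 1160 and 1132 to 1227 FPKM. Of 3 tested bone genes 1 rose, Spp1, which encodes osteopontin (log2 fold change 1.80, limma adjusted p = 0.0115), a call lost without NAC 2 (1.71). Of 3 tested fat genes 1 rose, Cebpa, an adipogenic factor (0.46, limma adjusted p = 0.0311), a call lost in 5 of 6 fits that left out 1 library (all but the one without Control 2), with library totals (0.30), in a fit of unfiltered genes and with no eBayes trend. In bulk samples, fewer cells of a type and less RNA per cell cannot be told apart, and the part of cell makeup in the differences of Tnmd and Mkx was not tested.

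**Figure D5:**
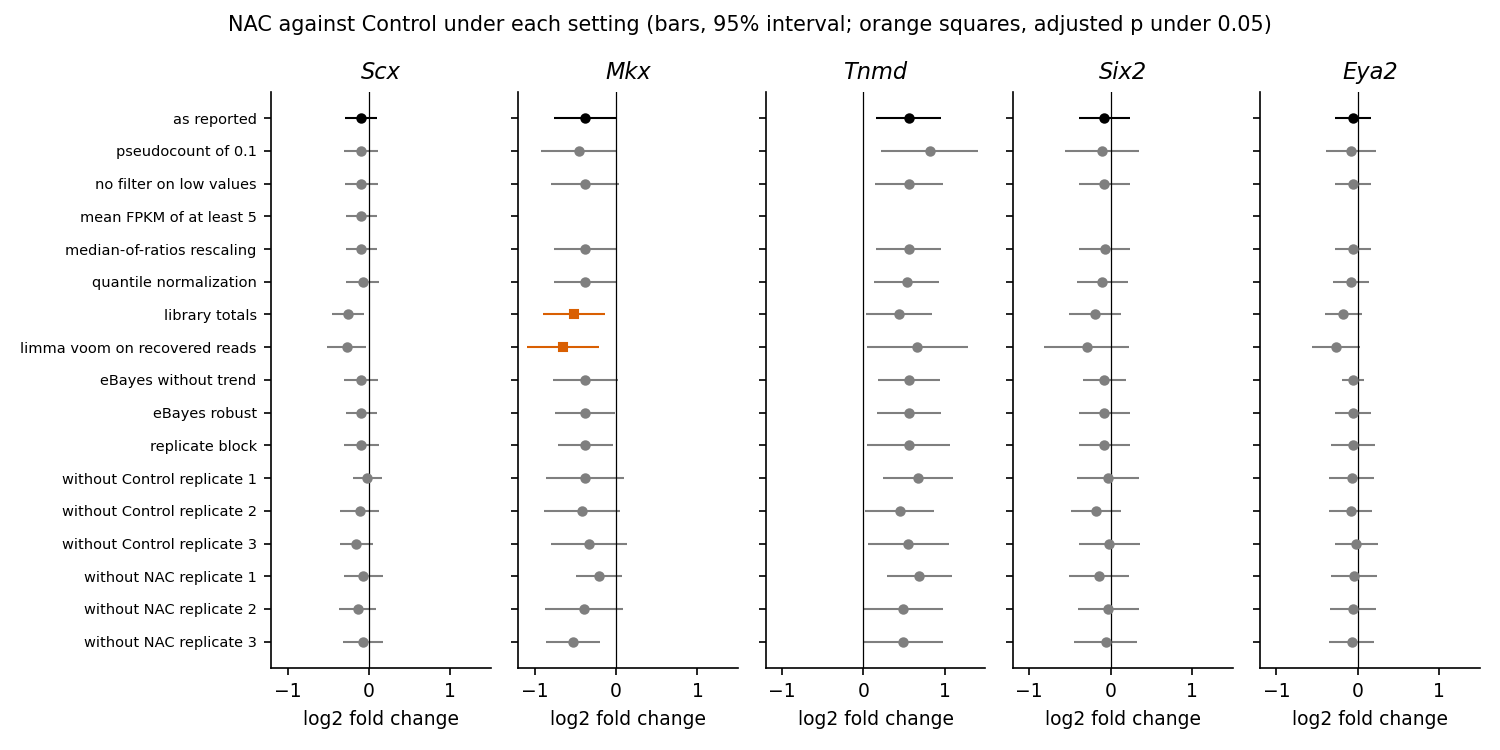
Log2 fold change of NAC against Control with its 95% interval for the 5 tested genes under each setting, orange squares where the adjusted p is under 0.05; limma voom works on log2 CPM and the rest on log2(FPKM + a pseudocount). Only Mkx passes the threshold, with library totals and with voom, and Tnmd lies above 0 in each setting where it was tested; at a mean of at least 5 FPKM only Scx was.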

How the data were processed

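RNA was measured in 6 libraries of rat tendon stem/progenitor cells, 3 Control and 3 NAC, made with a SMARTer mRNA-Seq kit per the labels' protocols. The authors deposited FPKM values for 33300 genes in 1 table with gene lengths. Aligner, counting method, strand setting: not given in the sources used here. Per the submitters' processing notes the builds were GRCm38 and mm10, which are mouse builds, although gene identifiers in the table are rat, so the rat build behind its coordinates is unknown here. The NAC columns carry the group's name; N1, N2 and N3 were assigned to Control 1, 2 and 3 by elimination.

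FPKM multiplied by length came in whole steps in every library (100% of values, tolerance 0.01), and dividing by the step gave reads; intervals (95%, Poisson) and the floor of 3 reads cover counting error only. The authors' scaling differed from library totals by a factor of 1.02 to 1.04 in Control and 0.909 to 0.925 in NAC. Genes with a mean of at least 1 FPKM (12733) were tested on log2(FPKM + 1), a scale that understates the change of low genes, with limma 3.58.1 in R 4.3.3 (eBayes with trend; group was the only term; two-sided) and Benjamini-Hochberg adjustment over all tested genes. The fit was checked on simulated data whose spread between libraries was taken from well-covered genes. Its outcome was not split by level, so it gives no measure of power for genes as low as these. Python 3.11.15, pandas 2.3.3, scipy 1.17.1 and matplotlib 3.10.9 served for the rest. The members, the 17 gene lists (161 entries, 1 matched through an older name, 160 in the table) and the settings were chosen with earlier results of these data known. Named were the 6 genes, up to 3 called and 3 most abundant genes of each list, and the 3 nearest profiles of each tested gene; others are said to be chosen after their values were seen. A few genes that this rule names are not reported here. Genes described only as having no reads, or counted within a list, were not held to that rule. Chi-square per degree of freedom between replicates was 3.59 to 9.20, above sampling noise and largest where Control 2 was in the pair, and no libraries were merged.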

Additional observations from a re-analysis of the deposited data

How the results depend on the processing

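Over 16 alternatives the number of genes called higher and lower among all tested was within 1.5 times of 774 and 346 in 9 and 6 of them. It moved to 467 and 3722 with library totals, to 466 and 110 with the replicate block, and when 1 library was left out ranged from 264 to 859 and from 51 to 347. Genes called lower also moved to 4191 with limma voom, 207 without a filter and 206 without a trend. Mkx passed as lower with library totals (-0.52) and voom (-0.66), which made 1 of the 6 genes called there; no other setting called any of them. At a mean of at least 5 FPKM only Scx was tested. Scx ranged from -0.27 to -0.018, Six2 from -0.29 to -0.015 and Eya2 from -0.27 to -0.020 over all settings, and leaving out 1 library gave -0.53 to -0.21 for Mkx and 0.45 to 0.69 for Tnmd.

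Same-numbered libraries were not treated as pairs: their deviations correlated at 0.063, 0.059 and -0.050, and Control 3 correlated best with NAC 1 (0.065). With the replicate block Mkx stood at -0.38 (adjusted p = 0.169) and Tnmd at 0.56 (adjusted p = 0.174). Of the genes named from lists, the block ended the calls of Tcf4, Tgif1, Itm2b, Itm2c and Cebpa (adjusted p = 0.0565 to 0.0845) and Klf4 passed (adjusted p = 0.0274).

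Among genes of the lists, the sign of some values, those of uncalled genes and of Itm2c, changed. Library totals and voom gave -0.093 and -0.094 for Fgfr1, -0.081 and -0.10 for Itm2a, -0.0022 and -0.0023 for Itm2c, and -0.12 and -0.13 for Pbx2. Quantile normalization gave -0.0094 for Fgfr1 and -0.091 for Itm2c. Leaving out 1 library gave -0.27 (without NAC 3) to 0.88 for Egr1, with -0.036 without Control 3, and -0.39 to 0.20 (without Control 2) for Mstn, with 0.039 without NAC 1. It gave -0.034 to 0.20 for Itm2a, with -0.033, -0.034 and -0.020 without Control 2, NAC 1 or NAC 2. The cause was not tested; library totals and voom move the median of all genes to -0.16 and -0.18. Depth limits Tnmd, Six2 and Eya1 most.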
